A study of Mus musculus with 6 samples.

Results

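The genes of cholesterol synthesis, uptake and transport were followed through single cells of the mouse testis. The list holds 29 genes, named from the pathway and all found among the 32285 genes of the count tables. They cover 8 enzymes that build squalene from acetyl-CoA, 10 enzymes of squalene epoxidation and the sterol ring, 2 genes of SREBP control, and 9 genes of uptake, efflux, lysosomal export, esters and transfer. The samples came from male C57BL/6J mice in 2 groups of 3. Control mice and mice given nicotine in the drinking water (200 µg/mL, for 8 weeks from the age of 3 weeks) were 11 weeks old when tissue was taken. Each library came from the pooled testes of 1 mouse, so the mouse is the replicate. Both groups are wild-type animals of 1 inbred strain and differ, by the labels, in nicotine alone.

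Cholesterol is made from acetyl-CoA by the mevalonate pathway, which yields farnesyl diphosphate and squalene, and then by oxidation and trimming of the sterol ring from lanosterol. When membranes hold little sterol, SREBP-2 (Srebf2) leaves the endoplasmic reticulum and switches on most of these enzymes, while INSIG1 holds its escort protein back. In the testis, Leydig cells turn cholesterol into testosterone, whereas germ cells accumulate intermediates of the ring pathway known as meiosis-activating sterols and remodel their membranes as they become sperm.

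The 6 libraries held 10823 to 12317 barcodes and 67853893 to 88329607 UMIs each. After filters and doublet removal 61945 cells remained. Among cells that passed the filters before doublet removal, 562 of 67586 barcode sequences (0.8315%) occurred in more than 1 library. Cells were clustered without the members and without the other cholesterol genes. Classes were named from marker lists and are called by the cell type whose markers led. They comprised 351 Leydig-like, 4462 Sertoli-like, 580 stromal-like and 190 macrophage-like cells, and among germ cells 1185 early spermatocytes (leptotene and zygotene markers), 1495 cells with early and late spermatocyte markers together (joint spermatocytes), 2911 late spermatocytes (pachytene to dividing markers), 9398 round and 15313 elongating spermatids. The late spermatocyte cluster scored 0.885 for its own markers and 0.551 for round spermatid markers. Acrv1, a round spermatid marker, stood at 305 CPM in it and at 21.1 CPM in early spermatocytes. A further 25990 germ barcodes of low UMI count were not staged. Sertoli-like cells were shallow, with a median of 868 to 1065 UMIs per mouse. No cluster was named for spermatogonia, peritubular myoid or endothelial cells.

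Levels are given as CPM, the UMIs of a gene scaled to 1000000 UMIs of a class in 1 mouse; macrophage-like values cover the 5 mice with at least 20 such cells. In these bulk sums of a class, fewer cells expressing a gene and less RNA per cell cannot be told apart. RNA released from broken cells adds to every class. The 3 Leydig genes Insl3, Cyp17a1 and Hsd3b1 stood in the 5 germ classes at 0.023% to 0.0414% of their Leydig-like level, and in Sertoli-like cells at 0.244%. The 3 late spermatid genes Prm2, Tnp1 and Tnp2 stood at 2.53% of their elongating level in Leydig-like cells, at 9.48% in Sertoli-like cells and at 12.01% in round spermatids, which may also transcribe them. The same percentages of a member's level give the floor used below.

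Promoters of 22 members were found in the RefSeq table (GRCm38.p6), as windows from 250 bases before to 50 after the annotated start. The SREBP element CACNCCAC, searched on both strands as all motifs here, lay in 3 of their 28 promoters (Acat2, Hmgcs1 and Insig1) and in 6.24% of 32851 promoters of all genes. The core of the cyclic AMP response element, TGACG, which the germ cell activator CREM tau is known to bind, lay in 9 of 28 and in 20.81% of all. Its full form TGACGTCA, which contains the core, lay in 0 of 28 and in 1.79%. The CCAAT box lay in 18 of 28 against 37.41%. A match is a run of letters and not a measured binding site. The 250 bases upstream of the RefSeq start are shown for 3 members, all with their highest class mean in Leydig-like cells. Cyp51 (chr5:4104698-4104947, minus strand) and Hmgcs1 (chr13:119690101-119690350, plus strand) had their highest germ mean in round spermatids. Insig1 (chr5:28071162-28071411, plus strand) had its highest germ mean in elongating spermatids. Each is written 5′ to 3′ on the gene's strand, with the letters of a TGACG core or SREBP element, read on either strand, in capitals.
Cyp51: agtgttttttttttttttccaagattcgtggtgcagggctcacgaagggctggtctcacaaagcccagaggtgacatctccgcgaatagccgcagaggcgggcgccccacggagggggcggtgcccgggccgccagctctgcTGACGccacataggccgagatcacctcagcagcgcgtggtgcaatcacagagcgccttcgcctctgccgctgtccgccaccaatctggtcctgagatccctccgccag
Insig1: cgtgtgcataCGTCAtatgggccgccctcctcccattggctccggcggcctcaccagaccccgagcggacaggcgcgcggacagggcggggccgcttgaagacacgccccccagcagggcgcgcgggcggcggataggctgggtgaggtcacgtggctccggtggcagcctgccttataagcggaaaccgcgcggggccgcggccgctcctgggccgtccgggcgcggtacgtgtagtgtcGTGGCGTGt
Hmgcs1: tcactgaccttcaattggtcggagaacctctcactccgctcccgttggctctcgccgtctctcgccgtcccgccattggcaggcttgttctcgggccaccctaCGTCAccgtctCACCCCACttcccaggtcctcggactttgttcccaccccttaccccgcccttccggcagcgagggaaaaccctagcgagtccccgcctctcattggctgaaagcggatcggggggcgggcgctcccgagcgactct
Counted from the start, the TGACG core began at base -108 in Cyp51, at -240 in Insig1 and at -147 in Hmgcs1. The SREBP element began at -9 in Insig1 and at -136 in Hmgcs1. In the window Cyp51 thus carried a TGACG core and no match to CACNCCAC, as did Ebp, Hsd17b7, Nsdhl, Sc5d, Soat1 and Srebf2. Other forms of the SREBP element were not searched, so a site of another sequence could be present in any of these promoters.

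Averaged over the 6 mice, 24 of the 29 members had their highest level, in CPM, in Leydig-like cells. Apoe, Npc1 and Npc2 were highest in macrophage-like cells, Fdft1 in late spermatocytes and Lipe in elongating spermatids. For 6 of these 29 (Mvk, Mvd, Insig1, Abca1, Npc1 and Npc2) the range of the highest class overlapped that of the class ranked next. Within the germ line the peaks, by mean, were spread: 12 members were highest in early spermatocytes, 4 in joint spermatocytes, 3 in late spermatocytes, 6 in round and 4 in elongating spermatids. Many of these peaks overlapped another germ class over the mice. In early spermatocytes this held for Acat2, Mvk, Lss, Msmo1, Hsd17b7, Ebp, Dhcr7, Abca1 and Npc1. It also held for Tm7sf2 and Stard4 in joint spermatocytes, and for Hmgcs1 and Idi1 in round spermatids.

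**Figure D1:**
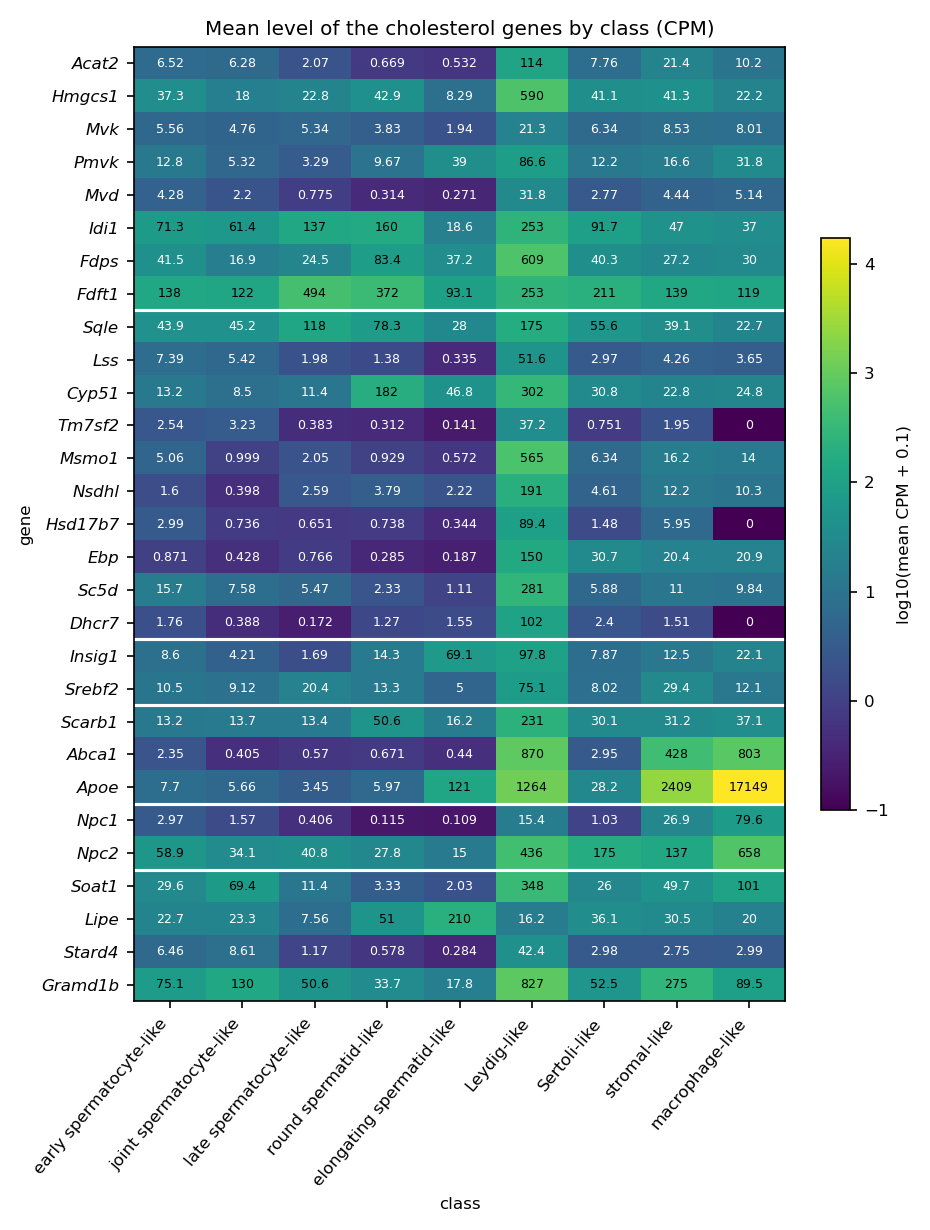
Mean level (CPM, over 6 mice, colour on a log scale) of the 29 members in rows, ordered by role, in 9 classes of testis cells in columns. Most rows are highest in the Leydig-like column, while Fdft1 peaks in late spermatocytes, Lipe in elongating spermatids, and Apoe, Npc1 and Npc2 in macrophage-like cells.

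The first steps of the mevalonate pathway were led by the Leydig-like cells. Hmgcs1, the cytosolic HMG-CoA synthase, ranged from 420 to 717 CPM over the 6 mice in Leydig-like cells, with a median of 589. Its round spermatid level ranged from 39.8 to 45.2 CPM, the highest germ class by mean, although early spermatocytes overlapped it (26.6 to 45.6). Acat2, which joins 2 acetyl-CoA units, stood at 86.6 to 131 CPM in Leydig-like cells (median 116) and averaged 6.52 CPM in early spermatocytes and 0.532 in elongating spermatids. No mouse's germ class reached the lowest Leydig-like value of either gene. Of the 3 enzymes that phosphorylate and decarboxylate mevalonate, Mvk averaged 21.3 ± 7.91 CPM (SD, n = 6) in Leydig-like cells and 5.56 in early spermatocytes. Mvd averaged 31.8 ± 14.5 and 4.28 CPM in the same classes. Pmvk, phosphomevalonate kinase, had a separate high class in elongating spermatids, at 36.9 to 41.1 CPM, against 8.66 to 11.1 in round spermatids and 73.0 to 124 in Leydig-like cells.

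The isoprenoid steps that follow did not all peak at the same germ stage. Idi1, the isopentenyl diphosphate isomerase, ran from 128 to 148 CPM in late spermatocytes and from 145 to 184 in round spermatids, and fell to 16.6 to 20.7 in elongating spermatids. In Leydig-like cells it ranged from 231 to 287 CPM. Fdps, farnesyl diphosphate synthase, averaged 24.5 CPM in late spermatocytes, and ranged from 77.1 to 92.7 CPM in round spermatids and from 521 to 792 in Leydig-like cells. Fdft1, squalene synthase and the first enzyme committed to sterols, showed the opposite order. Its late spermatocyte level lay between 476 and 515 CPM (median 492) and its round spermatid level between 363 and 381. Leydig-like cells ranged from 200.3 to 310 CPM and did not overlap either germ class. Fdps overlaps 2 other annotated genes on its strand, and Fdft1 overlaps Ctsb on the other strand, so reads of these genes could be shared.

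Of the squalene and sterol ring enzymes, 2 stood out in a germ class, Sqle in late spermatocytes and Cyp51 in round spermatids. Sqle, squalene epoxidase, stood at 111 to 126 CPM in late spermatocytes, 71.7 to 86.4 in round spermatids and 139 to 202 in Leydig-like cells. Cyp51, the lanosterol demethylase that makes a meiosis-activating sterol, stood at 9.19 to 13.6 CPM in late spermatocytes and at 163 to 200 in round spermatids (median 183). Its range in Leydig-like cells was 265 to 329 CPM, above that of the round spermatid class as a whole but not above every round spermatid cluster. The highest germ means of Sqle and Cyp51 came to 67.6% and 60.3% of their Leydig-like means. For the other 8 enzymes this percentage lay between 0.582% (Ebp) and 14.3% (Lss). Msmo1, a methylsterol oxidase that acts later than Cyp51, stood at 486 to 624 CPM in Leydig-like cells (median 574). Its highest germ mean was 5.06 CPM, in early spermatocytes. Sc5d averaged 281 CPM in Leydig-like cells and 15.7 in early spermatocytes, its germ peak. Ebp, a sterol isomerase, ranged from 124 to 175 CPM in Leydig-like and from 21.6 to 42.0 in Sertoli-like cells, and averaged 20.4 in stromal-like and 20.9 in macrophage-like cells, with every germ mean under 1 CPM. Nsdhl averaged 191 CPM in Leydig-like cells and 3.79 in round spermatids, and Hsd17b7 89.4 and 0.738. Dhcr7, which makes cholesterol in the last step of one branch, averaged 102 CPM in Leydig-like cells and 1.76 in early spermatocytes, its highest germ class mean. Lss and Tm7sf2 averaged 51.6 and 37.2 CPM in Leydig-like cells, with germ peaks of 7.39 CPM (early spermatocytes) and 3.23 CPM (joint spermatocytes). Tm7sf2 overlaps Vps51 on the same strand.

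The 2 SREBP genes differed in germ cells. Srebf2, the transcription factor, was highest of the germ classes in late spermatocytes (15.8 to 24.2 CPM) and ranged from 47.6 to 121 CPM in Leydig-like cells. Insig1, itself an SREBP target as well as its brake, rose along the spermatids, from 1.08 to 2.76 CPM in late spermatocytes to 10.8 to 17.3 in round and 63.3 to 76.3 in elongating spermatids. The elongating range lay inside the wider Leydig-like range of 62.1 to 140 CPM. In Sertoli-like cells the mean of Insig1 was 7.87 CPM with a spermatid floor of 6.52, so little of it stood above that floor.

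The 3 genes of uptake and efflux had their highest levels in somatic classes. Scarb1, the receptor that takes cholesterol esters from HDL, ranged from 121 to 288 CPM in Leydig-like cells (median 258) and from 45.5 to 55.0 in round spermatids, its germ peak. Abca1, the exporter that loads HDL, ranged from 628 to 1125 CPM in Leydig-like, 517 to 1018 in macrophage-like and 318 to 540 in stromal-like cells, and these ranges overlapped between Leydig-like and macrophage-like cells. Its germ means were 0.405 to 2.35 CPM, and the values of joint spermatocytes (0.405) and elongating spermatids (0.440) stood close to their Leydig floors of 0.296 and 0.357. Apoe, the lipoprotein ligand of macrophages, ranged from 14055 to 21661 CPM in macrophage-like cells and from 938 to 1597 in Leydig-like cells. In elongating spermatids Apoe ranged from 110 to 143 CPM, while round spermatids averaged 5.97, below their spermatid floor of 14.3.

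Free macrophage RNA was measured beside Apoe. With the rate of C1qa, C1qc, Lyz2 and Csf1r (genes chosen after the data were seen), it would add 2.44 CPM of Apoe to elongating spermatids, where 118.8 CPM was measured over all mice pooled. In Leydig-like cells it would add 200.2 of 1278 CPM. C1qb, another macrophage gene, was at 39.8 CPM in elongating spermatids, 1.35% of its macrophage-like level, and so did not follow the other 4. Apoe at 0.683% of its macrophage-like level there was lower than C1qb on this measure.

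Both lysosomal exporters were highest in macrophage-like cells. Npc2, the soluble carrier, ranged from 499.7 to 749.8 CPM in macrophage-like, 369 to 515 in Leydig-like and 151 to 202 in Sertoli-like cells, with a germ peak of 58.9 CPM in early spermatocytes. Npc1, the membrane partner, averaged 79.6 CPM in macrophage-like, 26.9 in stromal-like and 15.4 in Leydig-like cells and at most 2.97 in a germ class. These 2 proteins hand cholesterol from digested lipoproteins out of the lysosome.

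Genes that store, release and hand on cholesterol split between early and late germ cells. Soat1, which esterifies cholesterol, ranged from 53.8 to 77.5 CPM in joint spermatocytes, above every other germ class, and from 277 to 441 in Leydig-like cells. Gramd1b, a carrier from plasma membrane to endoplasmic reticulum, followed the same order in germ cells with 119 to 141 CPM in joint spermatocytes, and ranged from 585 to 1058.5 CPM in Leydig-like cells. It overlaps 3 annotated genes on its own strand. Stard4, a soluble sterol carrier, was at 6.42 to 10.5 CPM in joint spermatocytes and 27.6 to 56.0 in Leydig-like cells. Lipe, the hormone-sensitive lipase that splits those esters, was highest at the other end of the germ line. It ranged from 198 to 223 CPM in elongating and 44.1 to 59.2 in round spermatids, against means of 22.7 in early and 23.3 in joint spermatocytes, and from 5.89 to 10.4 in late spermatocytes and 8.66 to 24.1 in Leydig-like cells. Its Leydig-like mean was 16.2 CPM, over a spermatid floor of 5.22.

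Differences between classes were tested with edgeR's quasi-likelihood test on UMIs summed per mouse and class, with the mouse as a block. A gene counts as higher or lower at a Benjamini-Hochberg adjusted p under 0.05, over the 18132 genes tested, and a log2 change of at least 1. All 29 members were tested. Between Leydig-like and Sertoli-like cells, 27 members were called (60.4% of all genes tested were). Of these, 26 were higher in Leydig-like cells (19.4% of all genes) and 1 was lower (41%). By role these were 7 of 8 mevalonate enzymes, 10 of 10 squalene and ring enzymes, both SREBP genes, 3 of 3 uptake and efflux genes, 1 of 2 lysosomal exporters and 3 of 4 ester and transfer genes. The median log2 difference was 3.35 for the members and -0.96 for all genes. Abca1 led with a log2 difference of 7.77 (SE 0.19, edgeR adjusted p 1.7e-46), followed by Msmo1 at 6.03 (SE 0.18), Hsd17b7 at 5.29 (SE 0.35) and Sc5d at 5.14 (SE 0.19). Lipe was lower in Leydig-like cells (-1.59, SE 0.27, edgeR adjusted p 4.7e-07). Its difference misses the size limit with DESeq2 (-0.93), and of its means of 36.1 CPM in Sertoli-like and 16.2 in Leydig-like cells the spermatid floor came to 19.9 and 5.22. Npc2 (0.87) and Fdft1 (-0.21) did not pass. The range of Abca1 over mice in Sertoli-like cells was 1.39 to 5.39 CPM, against a Leydig floor of 2.11, so its Sertoli-like level stood little above that floor.

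Against round spermatids 26 members were called (77.8% of all genes): 24 were higher in Leydig-like cells (30.1% of all genes) and 2 lower (47.7%), with a median of 4.32 for the members and -1.01 for all genes. Abca1 (9.38, SE 0.13), Msmo1 (8.28, SE 0.13), Ebp (8.05, SE 0.19) and Apoe (6.77, SE 0.12) had the largest log2 differences, each with an edgeR adjusted p of 1.8e-38 or less. Lipe (-2.54, SE 0.21) and Fdft1 (-1.51, SE 0.09) were higher in round spermatids. When libraries were scaled by total UMIs alone, Fdft1 stood at -0.58 and no longer passed. The 24 comprised 6 of 8 mevalonate enzymes and 8 of 10 squalene and ring enzymes. Idi1 (-0.26), Cyp51 (-0.20) and Sqle (0.26) did not reach the size limit. In CPM the means of Idi1 and Cyp51 were higher in Leydig-like cells, so the direction of these 2 between the classes turns with the scaling.

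Sertoli-like cells, which nurse the germ cells, differed from round spermatids in both directions. Of 17 members called (58.2% of all genes), 10 were higher (27% of all genes) and 7 lower (31.3%), with a median of 0.52 against -0.13 for all genes. Ebp (6.25, SE 0.24), Acat2 (3.10, SE 0.31), Mvd (2.76, SE 0.56) and Npc1 (2.58, SE 0.89) were the largest on the Sertoli side. Mvd was low there, at 6.60 CPM in the first control mouse and 0.972 to 2.92 CPM in the others. Npc1 rested on 5 UMIs in Sertoli-like cells and lost its call without the first control mouse (edgeR adjusted p 0.0719) or the second nicotine mouse (0.0832). On the spermatid side Cyp51 was -3.03 (SE 0.12), Fdps -1.44 (SE 0.11), and Fdft1 and Idi1 both -1.30. Scaled by total UMIs alone, the split was 12 higher and 1 lower. Counted per cell instead, so that the UMI yield of the 2 cell types entered, it was 1 higher and 25 lower.

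Along the germ line the members moved apart. From early to late spermatocytes 18 members changed (56.4% of all genes): 5 rose (28.8% of all genes) and 13 fell (27.6%), with a median log2 change of -0.74 against 0.03 for all genes. Fdft1 (2.27, SE 0.07), Sqle (1.88), Idi1 (1.38), Srebf2 (1.38, SE 0.14) and Nsdhl (1.10) rose. The largest falls were those of Dhcr7 (-2.63, SE 0.54), Npc1 (-2.26), Tm7sf2 (-2.26), Stard4 (-1.96) and Insig1 (-1.95). The first 3 rested on few UMIs. Over all mice, Dhcr7 had 26 in early and 10 in late spermatocytes, Npc1 47 and 25, and Tm7sf2 42 and 22. The other members that fell were Mvd, Hsd17b7, Abca1, Pmvk, Lss, Acat2, Lipe and Sc5d, by 1.08 to 1.95. Few UMIs also lay under Mvd (69 in early and 45 in late spermatocytes), Hsd17b7 (46 and 35) and Abca1 (36 and 32). Fdft1 makes squalene, Sqle oxidises it and Idi1 supplies its precursor, while the members that fell include enzymes before them (Acat2, Pmvk, Mvd) and after them (Lss, Tm7sf2, Hsd17b7, Sc5d, Dhcr7). With total-UMI scaling the median of all genes was -0.40, and 2 members rose and 16 fell.

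From late spermatocytes to round spermatids 12 members changed (42.8% of all genes): 9 rose (26.7% of all genes) and 3 fell (16.1%), with a median of 0.03 against 0.00 for all genes. Cyp51 changed most, by 4.46 (SE 0.08, edgeR adjusted p 6.8e-54). It was followed by Insig1 (3.56, SE 0.20), Lipe (3.17, SE 0.09) and Dhcr7 (3.16, SE 0.37). For these 3 the round cluster with the highest Prm2 level, of 4, stood apart: Dhcr7 was at 4.99 CPM there and at most 0.229 in the other 3, Insig1 at 54.9 against at most 5.65, and Lipe at 128 against 5.98 to 45.4. Scarb1 (2.35), Fdps (2.19), Pmvk (1.96), Hmgcs1 (1.35) and Apoe (1.22) rose as well, although Apoe in round spermatids was under the spermatid floor. That floor, 12.01% of the elongating level, was also a large part of the round levels of Insig1, Lipe and Pmvk. Their means were 14.3, 51.0 and 9.67 CPM in round and 69.1, 210 and 39.0 CPM in elongating spermatids. Npc1 (-1.41, SE 0.44), Soat1 (-1.34, SE 0.12) and Acat2 (-1.15, SE 0.20) fell. Npc1 had 25 UMIs in late spermatocytes and at most 11 in any round cluster. Acat2 missed the size limit with doublets left in (-0.77) and with finer clusters (-0.95). Total-UMI scaling gave 7 up and 7 down, and counting per cell 7 and 8, with all-gene medians of -0.43 and -0.47.

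From round to elongating spermatids 9 members changed (44.2% of all genes): 5 rose (20.7% of all genes) and 4 fell (23.4%), with a median of 0.05 against 0.00. Apoe (5.31, SE 0.11), Insig1 (3.25, SE 0.11), Lipe (3.01, SE 0.07), Pmvk (2.99, SE 0.08) and Dhcr7 (1.25) rose. Idi1 (-2.13, SE 0.06), Hmgcs1 (-1.38), Fdft1 (-1.03) and Lss (-1.02, SE 0.26) fell. The split depended on the scaling: the median of all genes was -0.95 with total UMIs alone, 0.43 with DESeq2 and -2.31 counted per cell. It was then 4 up and 13 down, 8 up and 1 down, and 1 up and 25 down, in that order. Apoe remained a called rise in each of these. Without the first or second control mouse or the first nicotine mouse, Lss ended between -0.98 and -0.91 and was not called.

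By cluster, the peaks within spermatids were sharper than the class means show. The round spermatid class held 4 clusters and the elongating class 4, set here in order of their Prm2 level. Cyp51 stood at 11.4 CPM in late spermatocytes, 70.5, 189, 127 and 346 in the round clusters and 125, 8.66, 9.23 and 9.95 in the elongating ones. Fdps and Scarb1 were highest in the same last round cluster, at 191 and 80.7 CPM. Idi1 was highest in the first round cluster, at 212 CPM, and stood at 76.7 in the last. Insig1 stood at 54.9 CPM in the last round cluster, at 131 in the first elongating one and at 5.92 in the last. Lipe and Apoe were highest in the last elongating cluster, with mean levels of 392 and 236 CPM. Pmvk stayed between 38.4 and 40.9 CPM over the 4 elongating clusters. The order of clusters rests on 1 gene, no test was run between them, and the third round cluster was shallow, with a median of 4664 UMIs per cell. The last round cluster scored 0.821 for round and 0.571 for elongating markers. With finer clusters or doublets left in, a cluster that shared the leading genes Kcnb2, Ppm1f and Tm4sf4 was named elongating. Whether peaks in the last round cluster count as round thus depends on the clustering.

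**Figure D2:**
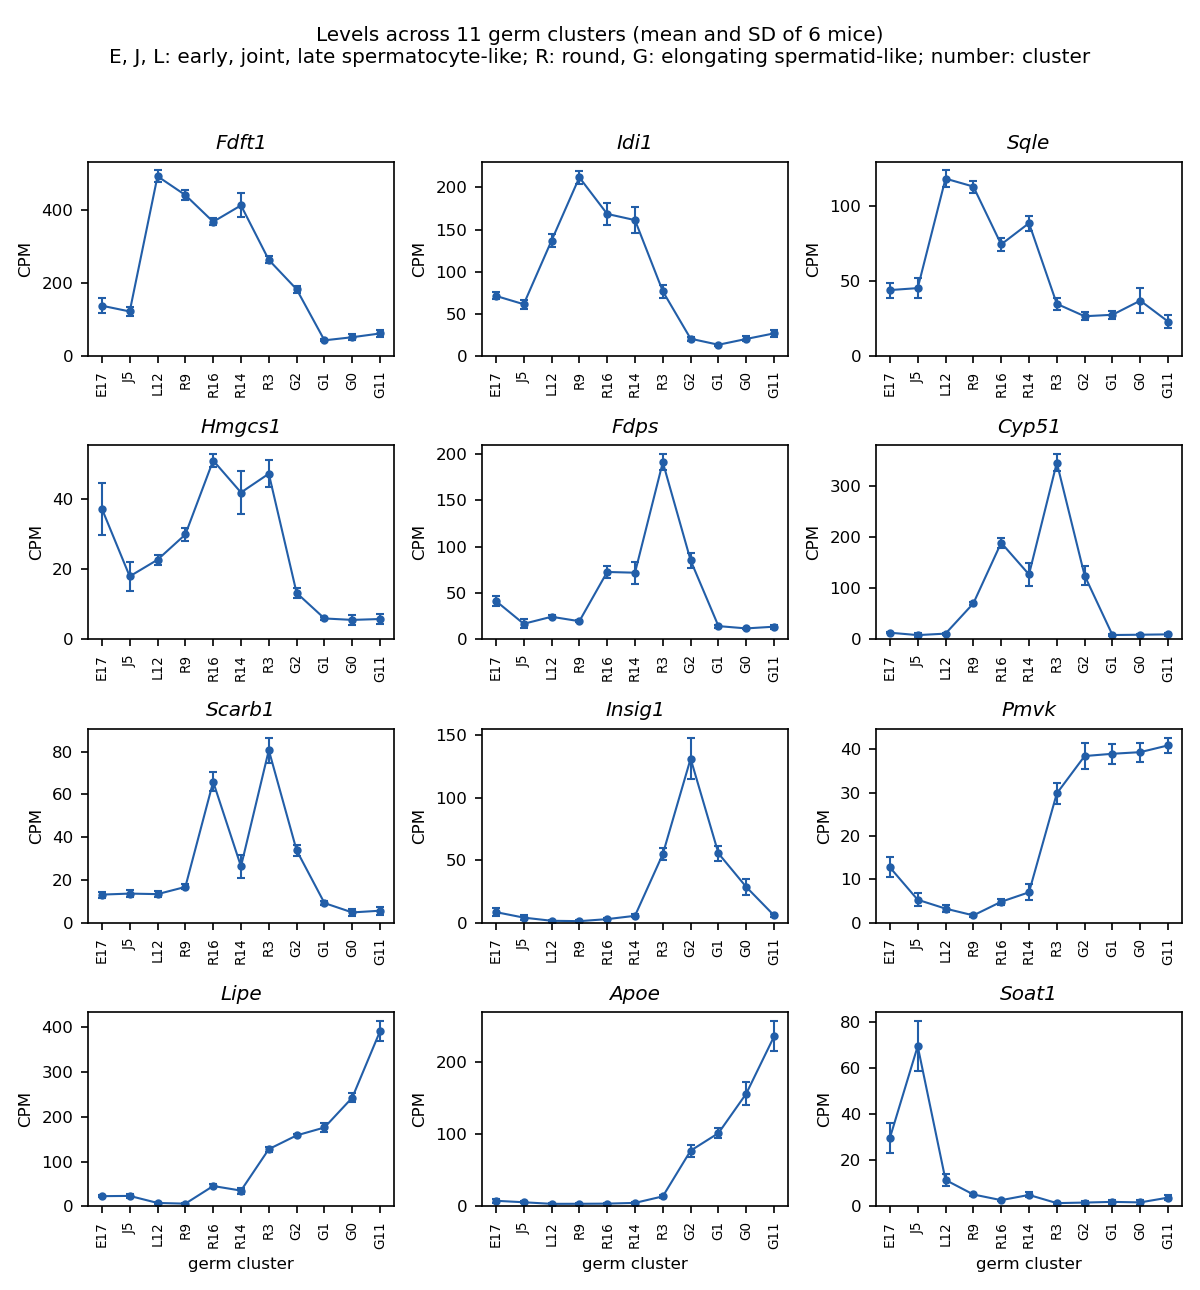
Level (CPM, linear axis from 0) of 12 members in 11 germ clusters, from early spermatocytes (E) over joint (J) and late (L) spermatocytes to round (R) and elongating (G) spermatids, ordered within a class by Prm2; points are means and bars SD over 6 mice. Cyp51, Fdps and Scarb1 peak in cluster R3, Insig1 in cluster G2, and Lipe and Apoe are highest in cluster G11.

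Because germ cells held 97.9% of all UMIs of kept cells and Leydig-like cells 0.581%, the source of a member's RNA in the whole testis differed from its level per class. Leydig-like cells held 69.5% ± 5.22 (SD, n = 6) of the Msmo1 UMIs, 61.8% ± 10.1 of those of Abca1 and 49.8% ± 5.78 of those of Ebp. They held 40.6% of Hsd17b7 and 31.9% of Sc5d, but 10.9% ± 4.62 of Hmgcs1 and 1.75% of Cyp51. Germ cells held 99.3% of the Lipe UMIs, 98.5% of Fdft1 and 97.8% of Cyp51, of which round spermatids alone held 75.4% ± 4.68. Elongating spermatids held 65.9% ± 3.31 of Insig1 and 63.5% ± 3.33 of Lipe. Of Apoe they held 45.8% ± 9.99, more than the 25.3% ± 9.54 of macrophage-like cells, although its level in CPM was far higher in the latter. Sertoli-like cells held 20.8% ± 4.78 of Ebp. These shares move with the number of cells caught and are descriptions of these libraries.

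**Figure D3:**
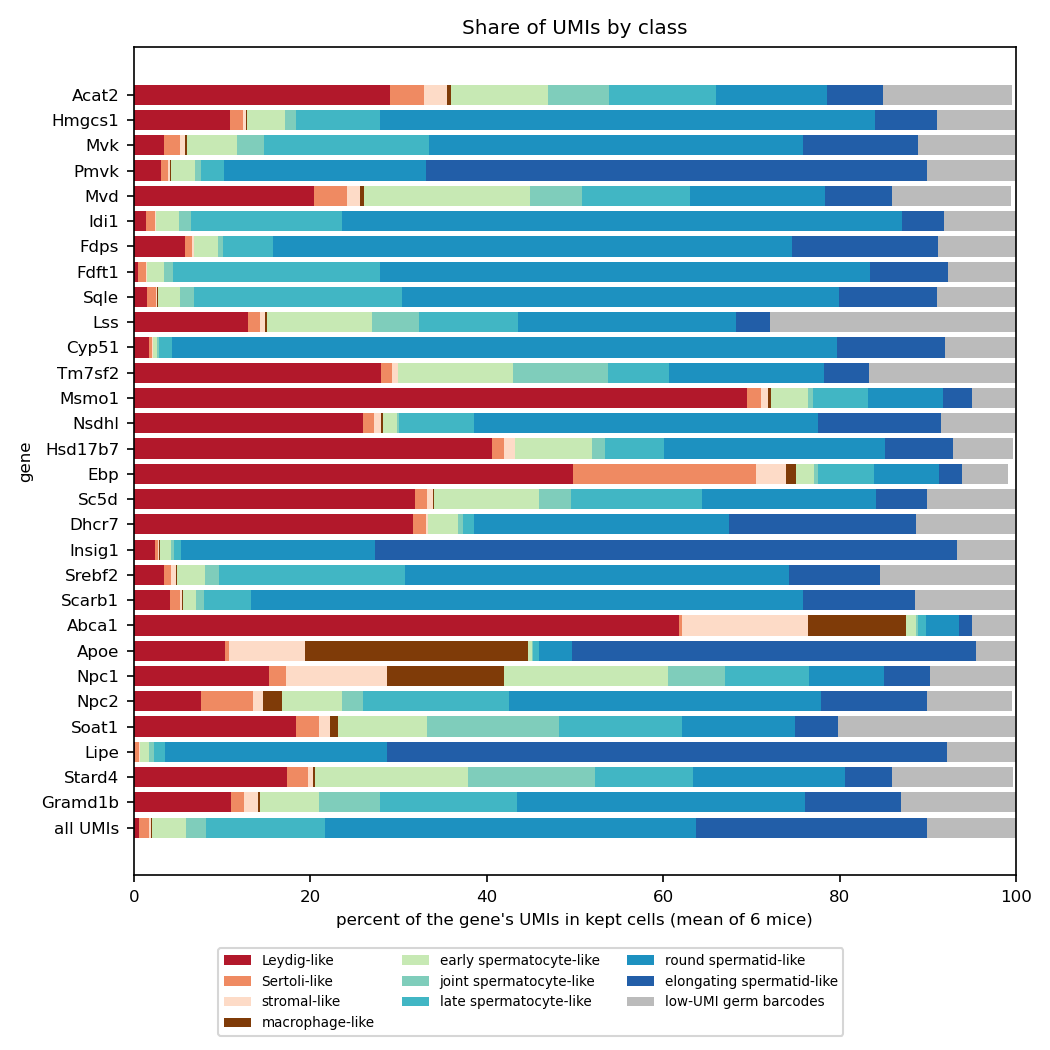
Percent of each member's UMIs in kept cells that lay in each class (mean of 6 mice), with all UMIs in the bottom bar. Leydig-like cells (red) hold 69.5% of Msmo1 and 61.8% of Abca1 but 0.581% of all UMIs, and spermatids (blue) hold most of Cyp51, Insig1 and Lipe.

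Another 45 genes of the pathway were found of 47 listed, and 36 were tested. Between Leydig-like and Sertoli-like cells 16 were higher and 9 lower, led by Lcat and Mylip, each at 0 UMIs in Sertoli-like cells, and Cd36 (7.78); Cyp46a1 and Vldlr were at 0 UMIs in Leydig-like cells, and Gramd1c stood at -2.73. Against round spermatids 20 were higher and 11 lower in Leydig-like cells, with Lrp1 at 8.93, Cd36 at 8.53 and Lrp8 at -3.41. Between Sertoli-like cells and round spermatids the counts were 15 and 6, with Tspo at 7.11, Scap at 5.23, Lipa at 5.07, Osbp at -2.00, Mbtps2 at -1.78 and Vldlr at -1.51. From early to late spermatocytes 12 rose and 12 fell. Lrp8 rose by 3.77 and Vldlr by 3.32, both lipoprotein receptors, and Scap, the SREBP escort, fell by 4.75, Stard3nl by 4.07 and Mylip by 3.92. Into round spermatids 5 rose and 7 fell, with Srebf1 at 4.63, Stard3nl at 3.09, Stard3 at -1.54, Cyp27a1 at -1.32 and Insig2 at -1.29. Into elongating spermatids 11 rose and 6 fell, with Stard3nl at 2.70, Mbtps2 at -2.83, Vldlr at -2.20 and Lrp8 at -2.15. The percentages of all genes called are those given for the members.

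Nicotine was compared with control by edgeR's quasi-likelihood test within each class, over 3 mice against 3, at an adjusted p under 0.05. In the sum of all kept cells of a mouse, 2 of 29 members were lower in nicotine mice and 0 higher, where 0.459% of all 21997 genes were called, 0.446% lower and 0.0136% higher. Abca1 stood at 8.42, 10.4 and 12.3 CPM in the control mice and at 6.96, 4.90 and 5.75 in the nicotine mice, and the groups did not overlap. Its log2 change was -0.80 (SE 0.14, edgeR adjusted p 0.0444). Msmo1 stood at 5.11, 6.86 and 5.32 CPM against 4.07, 3.38 and 3.18, again with no overlap, a change of -0.68 (SE 0.13, edgeR adjusted p 0.0444). Leaving out single mice moved the edgeR adjusted p of Abca1 between 0.0219 and 0.159, under 0.05 only without the first control mouse, and that of Msmo1 between 0.0585 and 0.128, under 0.05 in no case. Of all 29 members 20 had a change below 0 and 9 above it, with a median of -0.13 against 0.00 for all genes.

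Neither gene passed the test inside Leydig-like cells. Abca1 there stood at 818, 796 and 1125 CPM in control and 1096, 628 and 759 in nicotine mice (-0.15, edgeR adjusted p 0.997). Msmo1 stood at 557, 591 and 532 against 624, 598 and 486 CPM, a change of 0.01. The groups overlapped for both. Leydig-like cells themselves made up 0.708% ± 0.172 of the kept cells in control mice and 0.426% ± 0.0452 in nicotine mice (SD, n = 3; exact permutation p = 0.1, two-sided, the smallest that 3 mice against 3 allow). The 9 Leydig markers summed to 273 to 387 CPM of all kept cells in control and 150.4 to 184 CPM in nicotine mice, with 9 of 9 changes below 0, 4 of them called, and none at 0 UMIs. Macrophage markers summed to 50.6 to 68.6 against 32.1 to 48.0 CPM (10 of 10 below 0, 1 called), stromal markers to 35.5 to 56.5 against 26.1 to 36.9 (7 of 8 below 0, 0 called). With Leydig-like cells left out of the sum, an alternative added after the data were seen, Abca1 was at -0.61 (edgeR adjusted p 0.583) and Msmo1 at -0.39 (0.897). Sertoli markers summed to 110.3 to 142 against 82.5 to 96.5 CPM (9 of 11 below 0, 2 called). No marker of these lists was at 0. Fewer such cells in the testis and fewer such cells recovered cannot be told apart. The parts of cell number and of RNA per cell in the changes of Abca1 and Msmo1 were not tested. Tspo, the mitochondrial cholesterol importer and the one further pathway gene called in all kept cells, stood at 4.15, 5.36 and 4.20 against 2.45, 2.60 and 2.71 CPM (-0.80, edgeR adjusted p 0.0231), and at -0.74 (0.458) without Leydig-like cells.

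**Figure D4:**
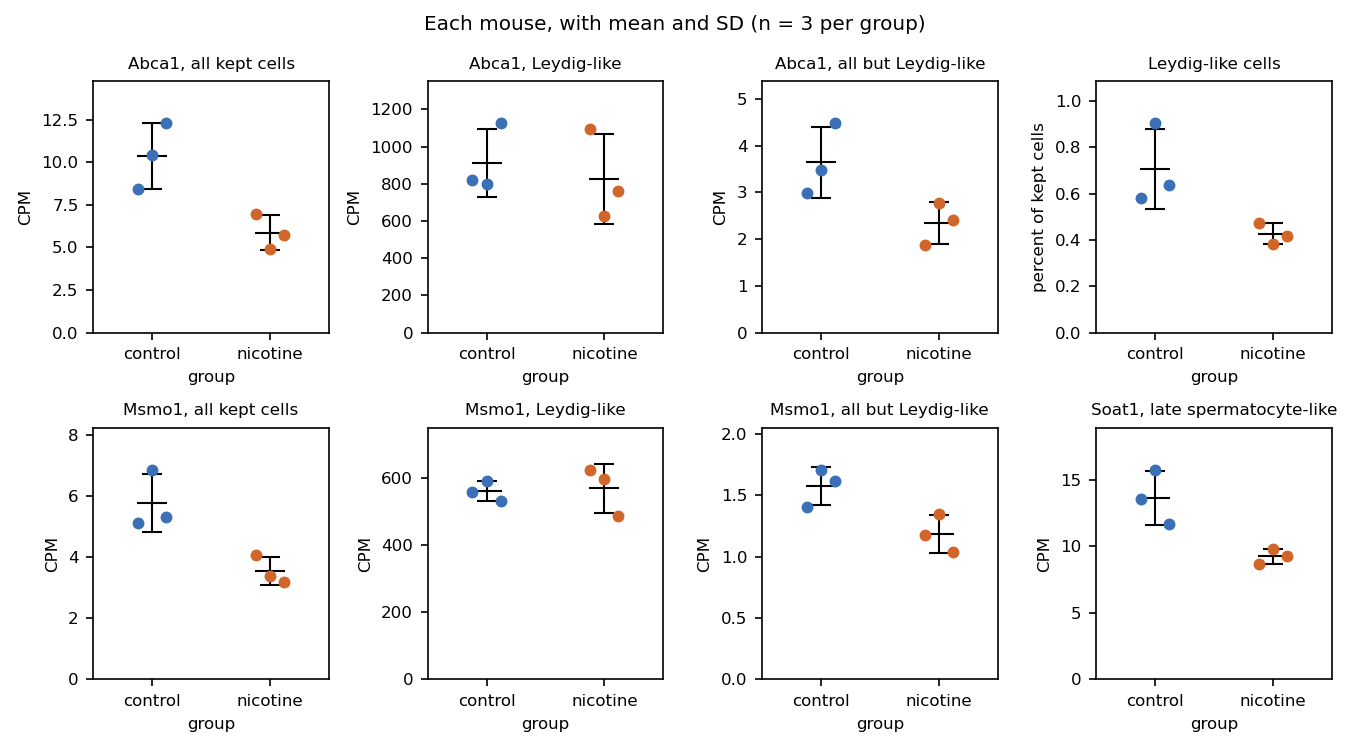
Levels (CPM, linear axis from 0) of Abca1 and Msmo1 in all kept cells, in Leydig-like cells and in all cells but these, of Soat1 in late spermatocytes, and the percent of kept cells that were Leydig-like; points are mice, bars mean and SD (n = 3 per group). The groups do not overlap for either gene in all kept cells or without Leydig-like cells, and overlap within Leydig-like cells.

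Within Leydig-like cells 0 of 26 members tested were called, as were 0% of 6303 genes (296 had an unadjusted p under 0.05). Of the 26, 19 had a change below 0 and the median was -0.13. The members with an unadjusted p under 0.05 were Insig1 (-0.58), Scarb1 (-0.56) and Soat1 (-0.34), with edgeR adjusted p values of 0.917 to 0.997. Scarb1 stood at 288, 261 and 269 CPM in control and 121, 256 and 190 CPM in nicotine mice, without overlap and with the first nicotine mouse lowest. In simulated data of the same depth, 52.2% of 2-fold and 13.4% of 1.5-fold changes were recovered in this class, which held 38 to 89 cells per mouse.

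In late spermatocytes 1 of 22 members tested was called, where 3.7% of 14586 genes were, and 0.994% were lower. Soat1 stood at 13.5, 15.7 and 11.7 CPM in control and 8.65, 9.81 and 9.24 in nicotine mice, and the groups did not overlap (-0.55, SE 0.15, edgeR adjusted p 0.0497). The call was lost with total-UMI scaling (0.0533), with cells of at least 1000 UMIs (0.0528) and with doublets left in (0.200), and DESeq2 gave no adjusted p for it. Leaving out a mouse ended it in 5 of 6 cases (0.0935 to 0.262), all but that of the third control mouse. Stage markers moved in the same cells: 10 of 10 round spermatid markers were above 0 and 8 called, with sums of 2019 to 2322 CPM in control and 2592 to 2751 in nicotine mice, and Sycp3 was lower (-0.37, edgeR adjusted p 0.00936). Soat1 falls from spermatocytes to round spermatids, and the part of stage in its difference was not tested. Cyp51, which rises over that step, was at 0.40 (edgeR adjusted p 0.141) in the same cells.

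In the other classes no member was called. The tests covered 13 members in Sertoli-like cells (0.0887% of all genes called), 22 in early spermatocytes (0%; 1497 genes at an unadjusted p under 0.05), 15 in joint spermatocytes (0.106%), 25 in round spermatids (0%; 814 unadjusted), 20 in elongating spermatids (0.00697%), 5 in stromal-like (0%; 360 unadjusted) and 7 in macrophage-like cells (0%; 84 unadjusted), the last with 2 nicotine mice because the first had 10 such cells. In round spermatids Fdps stood at 77.5, 77.3 and 77.1 CPM in control and 91.2, 84.5 and 92.7 in nicotine mice, without overlap, a change of 0.23 with an edgeR adjusted p of 0.998. Lipe (0.26) and Insig1 (0.33) also had unadjusted p values under 0.05 there, as had Srebf2 (-0.23). In Sertoli-like cells Fdps went the other way, at 53.6, 39.0 and 51.5 against 35.9, 34.3 and 27.8 CPM (-0.62, edgeR adjusted p 0.432). The spermatid gene Prm2 in Sertoli-like cells stood at 6514, 5422 and 7271 CPM in control and 4176, 4513 and 4547 in nicotine mice, also without overlap, and the part of spermatid RNA in the Fdps difference was not tested. In stromal-like cells Gramd1b stood at 369, 476 and 267 against 91.5, 216 and 232 CPM (-0.97, edgeR adjusted p 0.108). In an interaction test added after the data were seen, the nicotine change differed between classes for 1 member in each of 3 of 6 pairs: Scarb1 between Leydig-like cells and round spermatids (0.0485% of all genes called), Fdps between Sertoli-like cells and round spermatids (0.189%) and Lipe between round spermatids and late spermatocytes (2.56%), the last a count near its background. None of the 3 was called with DESeq2 (adjusted p 0.795, 0.347 and 0.214), and each call was lost in 2 to 4 of the 6 fits that left out a mouse.

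**Figure D5:**
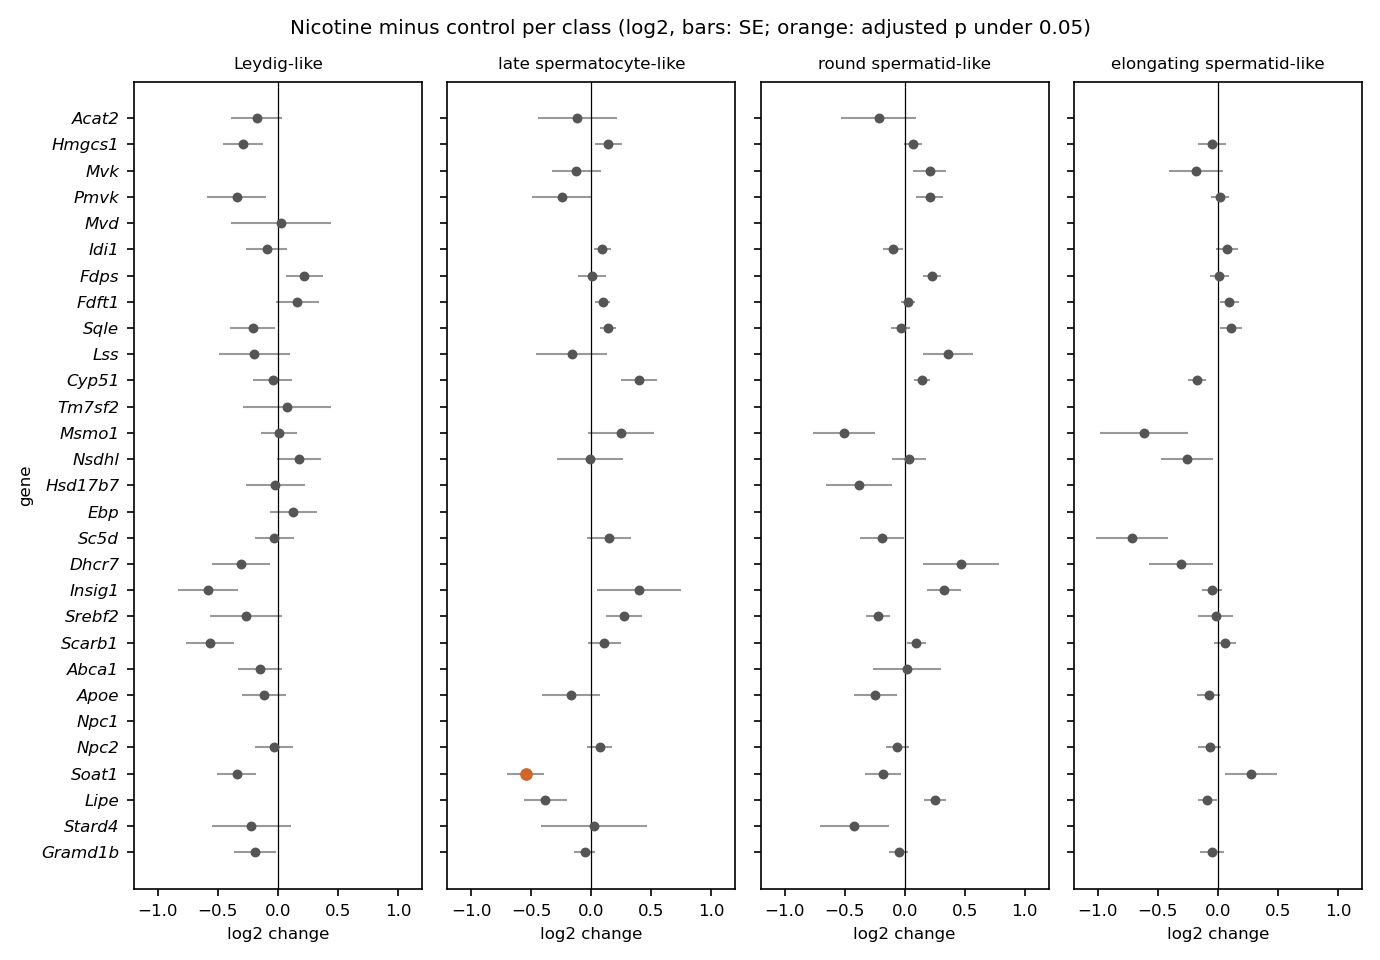
Fitted log2 change of each member tested, nicotine minus control, in Leydig-like cells, late spermatocytes, round and elongating spermatids; bars are SE, n = 3 mice per group, orange marks an adjusted p under 0.05. Soat1 in late spermatocytes is the single orange point, and the changes of the other members stand on both sides of 0.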

How the data were processed

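Single-cell RNA was measured in 3 control and 3 nicotine mice with a 10x 3′ kit, per the labels. The authors deposited 1 matrix of UMI counts per library, made with Cell Ranger 7.2.0 on GRCm38 (mm10), per the submitters' processing notes; how counting treated strand was not given in the sources used here. Here, cells needed 500 UMIs, 250 genes and a mitochondrial share under 20%. Doublet scores from Scrublet (scanpy 1.11.5) were ranked in each library and the highest removed at 0.8% per 1000 cells, 8.62% to 9.76% of barcodes. Cells were clustered on 2000 variable genes without the members and the other cholesterol genes (30 components, 15 neighbours, Leiden resolution 1, no integration), and somatic clusters were clustered again.

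Clusters were named from marker lists; the naming rule was refined after clusters were seen, with pachytene and dividing markers scored together. The late spermatocyte class took the place of the pachytene class in the planned contrasts, but its markers run from pachytene to dividing. Joint spermatocytes were left out of these contrasts. Piwil1 and Spata16, the pachytene markers followed by cluster, were higher in joint (457 and 1285 CPM) than in late spermatocytes (35.5 and 288). With finer clusters, a cluster sharing the leading genes Ssxb3 and Gm12695 with late spermatocytes scored 0.748 for round spermatid markers. It scored 0.6545 for pachytene to dividing markers and was named for these. Where late spermatocytes end and round spermatids begin thus depends on the naming. The members and lists were chosen with earlier results of these data known. For each mouse, the UMIs of a class with at least 20 cells were added up and tested over all genes with edgeR 4.0.16 (filterByExpr, TMM, robust quasi-likelihood fit, limma 3.58.1, R 4.3.3), with Benjamini-Hochberg adjustment. Alternatives were DESeq2 1.42.0, other scaling, filters, clusters and doublet handling, and leaving out each mouse. Genes named are all 29 members, with values over mice for the members with the largest called changes (up to 4 in each direction per contrast), up to 3 other pathway genes in each direction (some are not reported here), and any gene called under nicotine. Genes overlapping on one strand can share reads, and those on opposite strands can if counting ignored strand. Besides the members named above, Scarb1 and Srebf2 overlap annotated genes on their own strand. Cyp51, Lipe, Soat1, Mvd, Lss, Idi1, Hmgcs1 and Npc1 overlap genes on the other strand. On simulated counts, 85.1% of 2-fold changes were recovered over all kept cells and 82.1% in late spermatocytes. Of 165 calls made on such counts over all kept cells, 19 fell on genes left unchanged. In late spermatocytes these were 13 of 173 calls, and in Leydig-like cells 12 of 112.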

Additional observations from a re-analysis of the deposited data

Results flagged for a closer look

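The change under nicotine was compared between classes by an interaction term, edgeR's quasi-likelihood test over 18543 genes, a comparison added after the data were seen. Of 6 pairs of classes, 3 gave 1 member each with an adjusted p under 0.05, and 3 gave 0 members.

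Scarb1, the HDL receptor, differed in its change between Leydig-like cells and round spermatids, by a log2 difference of -0.85 (SE 0.17, edgeR adjusted p 0.0111; 0.0485% of all genes were called). Leydig-like cells stood at 288, 261 and 269 CPM in control and 121, 256 and 190 in nicotine mice, and round spermatids at 45.5, 48.8 and 53.3 against 55.0, 53.1 and 48.0. The adjusted p was 0.795 with DESeq2, 0.205 with total-UMI scaling, 0.622 without the first nicotine mouse and 0.125 without the first control mouse.

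Fdps, farnesyl diphosphate synthase, differed between Sertoli-like cells and round spermatids by -0.95 (SE 0.23, edgeR adjusted p 0.0456; 0.189% of all genes). All 3 nicotine mice were below all 3 control mice in Sertoli-like cells, at 35.9, 34.3 and 27.8 against 53.6, 39.0 and 51.5 CPM, and above them in round spermatids. Prm2, from spermatids, was also lower in Sertoli-like cells of all 3 nicotine mice (4176 to 4547 against 5422 to 7271 CPM), and the part of spermatid RNA was not tested. The adjusted p was 0.347 with DESeq2 and 0.171 with total-UMI scaling, and it stayed under 0.05 in 2 of 6 fits that left out a mouse (without the second control mouse, 0.0143, and without the second nicotine mouse, 0.0461).

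Lipe, hormone-sensitive lipase, differed between round spermatids and late spermatocytes by 0.61 (SE 0.18, edgeR adjusted p 0.0438; 2.56% of all genes). Round spermatids stood at 45.7, 44.1 and 50.5 against 56.9, 49.4 and 59.2 CPM, and late spermatocytes at 10.4, 7.80 and 7.58 against 5.89, 6.57 and 7.08. The adjusted p was 0.214 with DESeq2 and 0.0284 with total-UMI scaling, and it was above 0.05 in 4 of 6 fits that left out a mouse (0.0946 to 0.326).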

How the results depend on the processing

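Over the other settings listed in the methods, 268 recomputed counts of members stayed within 1.5 times the value reported and 42 did not. Of the single genes' values 623 kept their call, 54 lost it and 4 reversed. With the number of cells as library size, members higher in Sertoli-like cells than in round spermatids went from 10 to 1 and lower from 7 to 25, with Acat2 (-0.53), Mvd (-0.83) and Npc1 (-0.88) reversed. The same scaling gave 0 members lower in Leydig-like than Sertoli-like cells, where 1 was reported, with Lipe reversed (1.56), 8 that fell into round spermatids (from 3), and 1 rise and 25 falls into elongating spermatids (from 5 and 4). Total-UMI scaling gave 1 lower in Leydig-like cells than round spermatids (from 2), 1 lower in Sertoli-like cells (from 7), 2 rises into late spermatocytes (from 5), 7 falls into round and 13 into elongating spermatids. DESeq2 gave 0 lower in Leydig-like than Sertoli-like cells, and 8 rises and 1 fall into elongating spermatids. With doublets left in the counts were 0 lower in Leydig-like than Sertoli-like cells and 2 falls into elongating spermatids, which also fell to 2 without a filter on low counts, without the mouse block and at Leiden resolution 2. Control mice alone gave 5 falls into round spermatids, and leaving out a mouse 3 to 5 (5 without the third control mouse). Under nicotine, the 2 members called in all kept cells became 1 with the replicate block, 0 to 1 without a mouse (1 without the first control mouse, 0 without any of the other 5), and 0 without Leydig-like cells. The 1 of late spermatocytes became 0 with DESeq2, total-UMI scaling, the replicate block, doublets left in or at least 1000 UMIs, and 0 to 3 without a mouse (3 without the third control mouse, otherwise 0); DESeq2 gave Soat1 no adjusted p. The 0 of stromal-like cells became 1 with at least 1000 UMIs and 0 to 1 without a mouse (1 without the third control or the third nicotine mouse). The causes were not tested. Correlations of same-numbered mice ran from -0.121 to 0.378 and were in no class all over 0.1, so the numbers were not taken to pair mice, although the mice numbered 2 had a correlation above 0 in all 9 sums. Under the replicate block Msmo1 had an edgeR adjusted p of 0.0525 and Soat1 of 0.0636. Depth limits the somatic classes most: Leydig-like cells summed to 230923 to 613987 UMIs per mouse.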
